A study of Mus musculus with 8 samples.

Results

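The ends of the mouse autosomes were examined for changes in copy number in liver tumors, and the outermost 5 Mb of probed sequence on each side of chromosomes 1 to 19 made up 38 ends. The centromere-side end of a chromosome ran 5 Mb inward from its first probe and the telomere-side end 5 Mb inward from its last probe. The 38 ends held 13321 probes, 6250 on the centromere side and 7071 on the telomere side, of 161460 probes on the autosomes. The rest of the autosomes was divided into 443 interior windows, giving 481 windows in all. Interior windows were also 5 Mb wide, except that the last on each chromosome took up the remaining length and could be shorter or longer.

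Each of 8 male FAH-/- mice gave DNA of 1 liver tumor, labelled with Cy5. The reference, labelled with Cy3, was liver DNA pooled from 6 FAH+/+ littermates, also male. Both were hybridized together to mouse comparative genomic hybridization arrays, on which a log2 ratio of tumor over pool above 0 means more tumor DNA at a probe. FAH-/- mice are without fumarylacetoacetate hydrolase, which completes the breakdown of tyrosine, and depend on NTBC (nitisinone), an inhibitor acting further upstream that keeps toxic intermediates from forming. Per the labels they had received 2.5% of the normal NTBC dose, 7.5 mg/L in drinking water, for 6 to 12 months. The tumors formed 1 group, came from separate mice, and are numbered 1 to 8 as deposited. The strain of the mice and the share of tumor cells in each sample are not given in the sources used here. The dyes were not swapped, the pool is a single reference on every array, and non-tumor liver of the FAH-/- mice was not hybridized.

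Mouse autosomes carry their centromere close to one tip, so each has a proximal end next to the satellite repeats of the centromere and a distal end that runs to the telomere. Array probes avoid repeats, so neither the centromere itself nor the telomeric repeat is measured, and an end here is the nearest unique sequence. Loss or gain of a whole chromosome, as after missegregation, carries both ends along, while a break within an arm separates an end from the rest. A change that starts within a chromosome and runs to its last probe is called terminal, and one that leaves both ends unchanged is called interstitial.

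The first probes lay between positions 3000029 and 3257712 on mm9 except on chromosome 14, where the first probe was at 8526343. A centromere-side end held 193 to 453 probes (median 331) and a telomere-side end 238 to 481 (median 382). Between 97.0% and 99.9% of spots per array were well above background, and median signals exceeded the local background 4.27 to 11.1 times for the reference and 4.17 to 6.56 times for the tumors. Precision is limited by the number of arrays. Log2 ratios rose and fell along the probes in a pattern common to the arrays, with pairwise correlations of 0.84 to 0.91 among tumors 1 to 6. It was weaker in tumors 7 and 8, whose correlations with other arrays or each other were 0.67 to 0.80. Values are therefore given with this pattern kept and, on a second scale, with it subtracted. The noise between neighbouring probes was 0.39 to 0.65 with the pattern kept and 0.12 to 0.21 with it removed. Subtraction also takes away any change that most tumors share, and on these arrays such a change and a property of the probes or of the pool cannot be told apart. The 8 arrays lay on 2 slides of 4.

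Most ends carried the same change as the chromosome they belong to. For this comparison the commonest level of each tumor was set to 0 with the pattern removed, and a level of at least 0.2 in size on the log2 scale was taken as gained or lost. Of 19 chromosome-by-tumor pairs with a lost interior, 15 had both ends lost as well, and of 8 pairs with a gained interior, 7 had both ends gained. Of the 125 pairs whose interior was within 0.2 of the commonest level, 115 had both ends within it too. On the scale with the pattern kept and the array median at 0, 43 interiors were gained and 11 lost, so these counts depend on where 0 is set. Of the 43, 28 had both ends gained, and of the 11, 9 had both ends lost.

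Chromosome 12 in tumor 1 shows how evenly a whole-chromosome loss reached both tips. Its centromere-side end was at -0.69, its interior at -0.69 and its telomere-side end at -0.66. For the gain of chromosome 16 in tumor 5 the centromere side was at 0.73, the interior at 0.71 and the telomere side at 0.70. For scale, 1 copy added to 2 in all cells corresponds to 0.58 and 1 copy lost to -1.0, but copies per cell were not measured.

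**Figure D1:**
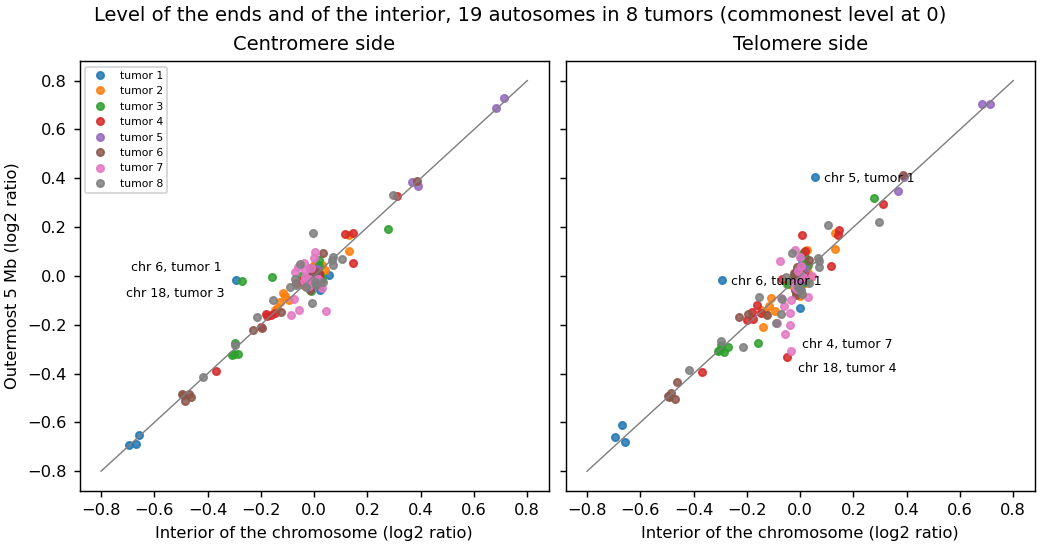
Mean log2 ratio of the outermost 5 Mb (vertical) against that of the interior (horizontal) for each of 19 autosomes in each of 8 tumors, with the shared probe pattern removed and each tumor's commonest level at 0; points are coloured by tumor and the line marks equal levels. Most points lie on the line, and the named ones are the 6 ends at least 0.2 away from their interior, such as the telomere side of chromosome 5 in tumor 1 at 0.41 against 0.057.

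The exceptions were of 2 kinds, those with a changed interior and those with an interior within the threshold. Of the 19 lost interiors, chromosome 6 in tumor 1 had neither end lost, chromosome 4 in tumor 6 had its centromere side alone past the threshold, and chromosome 5 in tumor 8 and chromosome 18 in tumor 3 had their telomere side alone. In chromosome 4 of tumor 6 and chromosome 5 of tumor 8 all levels lay close to the threshold, at -0.22, -0.23 and -0.17 and at -0.17, -0.22 and -0.29 from centromere to telomere. Among gained interiors, chromosome 15 in tumor 3 had 0.19 on the centromere side, just under the threshold, against 0.28 in the interior and 0.32 on the telomere side. Of the 125 interiors within the threshold, 8 had the telomere side alone past it and 2 the centromere side alone. The 2 were chromosome 2 in tumor 6 and chromosome 14 in tumor 4, both at -0.21 beside an interior at -0.20. The telomere sides included chromosome 4 in tumor 2 at -0.21 and chromosome 18 in tumor 8 at 0.21. In tumor 7 they included chromosome 2 at -0.20 and chromosome 11 at -0.24. Chromosome 14 in tumor 3, also among the 8, had no single level. Its centromere side was at -0.0062, its interior at -0.16 and its telomere side at -0.27.

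To find terminal changes, each end was set against the interior of its own chromosome in the same tumor. This difference, called the deviation of an end, does not depend on where an array is centred. With the pattern removed, 6 of 304 end-by-tumor pairs had a deviation of at least 0.2 in size, or 1.97%, against 1.30% of all 3848 window-by-tumor pairs and 1.24% of the 3544 interior ones. The 6 pairs lay in tumors 1, 3, 4 and 7, and tumors 2, 5, 6 and 8 had none. Of the 304 pairs, 4 were above and 2 below the interior, against 23 (0.598%) and 27 (0.702%) of all 3848. Those above include retained ends beside a lost interior, described below. The telomere side held 4 of the 6 and the centromere side 2, out of 152 pairs each. Tumor 1 alone held 3 of the 6. With the pattern kept, the centromere side of chromosome 19 in tumor 7, at -0.21, joined them, giving 7 pairs, or 2.30%, against 1.90% of all pairs and 1.86% of interior ones. Single arrays have no replicate, so these pairs are descriptions of those 8 tumors.

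The clearest terminal gain was at the telomere side of chromosome 5 in tumor 1. The deviation of this end was 0.35 in tumor 1 with the pattern removed, and -0.079 to 0.085 in the other 7 tumors. The 8 tumors ran from -0.032 to 0.43 with the pattern kept, with a median of 0.026. Tumor 1 thus stood above all others on both scales. Its level in the end, a mean over 411 probes of 1 array, was 0.41 above the commonest level. Segmentation of the chromosome placed the gain at chr5:136387909-152519030 on mm9, 16.1 Mb with 1320 probes at 0.42, running to the last probe. The rest of chromosome 5 in that tumor was at 0.0087 over the proximal 107 Mb and at 0.042 over the next 25.7 Mb. By RefSeq order on the GRCm38 assembly, the protein-coding genes nearest this tip include Rfc3, a subunit of the clamp loader of DNA replication, Kl, the Klotho coreceptor of FGF hormones, and Pds5b, a regulator of cohesin. Gene positions on mm9 were not at hand, so genes are given here by their order from the tip and not placed among the probes.

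Tumor 4 had a terminal loss on the telomere side of chromosome 18. There the deviation was -0.29 with the pattern removed, against -0.038 to 0.13 in the other 7 tumors. On the scale with the pattern kept it ran from -0.32 in tumor 4 to 0.11 in tumor 7, with a median of -0.015. The loss covered chr18:68140662-90744509, 22.6 Mb with 1407 probes at -0.32, and reached the last probe. The interior of the chromosome in this tumor was close to the commonest level, with 0.035 over the 54.6 Mb before the loss. The genes nearest this tip are Tmx3, a protein disulfide isomerase of the endoplasmic reticulum, Dok6, an adaptor of receptor tyrosine kinases, Cd226, an activating receptor of lymphocytes, Rttn, a centriole protein, and Socs6, a suppressor of cytokine signalling.

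On chromosome 18 of tumor 3 the reverse was measured, an end kept while the rest was lost. The centromere-side end was at -0.021, and the segment chr18:3147004-13517594, 10.4 Mb with 652 probes, was at -0.029. Beyond it the chromosome was at -0.31 over 46.9 Mb and -0.26 over the last 30.3 Mb. The loss is therefore terminal on the telomere side and spares the proximal tip, and the deviation of 0.25 describes a retained end. This reading holds with the commonest level at 0: with the pattern kept and the array median at 0 the proximal segment was at 0.27 and the other 2 segments at -0.11. In the other 7 tumors the deviation of this end was -0.080 to 0.029. Among the protein-coding genes nearest the proximal tip are Crem, a modulator of cAMP-responsive transcription, Cul2, a scaffold of ubiquitin ligases, and Bambi, a decoy receptor of the TGF-beta family.

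Both ends of chromosome 6 in tumor 1 stood above the interior, by 0.28 on each side. Their levels were -0.015 and -0.016, so the ends were at the commonest level and the interior was lost. This loss was interstitial, covering chr6:33230044-94158984, 60.9 Mb with 4443 probes at -0.62, between a proximal stretch of 30.1 Mb at -0.029 and a distal one of 55.3 Mb at 0.0051. With the pattern kept and the array median at 0 the flanking stretches were at 0.26 and 0.24 and the lost one at -0.46. In the other 7 tumors the deviations of the 2 ends were -0.035 to 6.1e-06 and -0.050 to 0.0081. When medians over probes took the place of means the deviations were 0.18 and 0.19, under the threshold. The proximal tip carries Samd9l, Hepacam2, Vps50, the calcitonin receptor gene Calcr and Tfpi2, and the distal one Bicd1, a dynein adaptor, Resf1 and Amn1.

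The remaining pair, the telomere side of chromosome 4 in tumor 7, had less even levels. Its deviation was -0.27, against -0.11 to 0.062 in the other 7 tumors, the lowest of these being tumor 8. Segmentation gave -0.15 over 33.8 Mb, then -0.38 over chr4:150493260-154252748, 3.76 Mb with 286 probes, and -0.17 over the last 1.37 Mb. The lowest stretch thus stopped short of the last probe, and with ends of 2 Mb the deviation was -0.18, under the threshold. Tumor 7 also had the highest noise with the pattern removed, 0.21. Samd11, Noc2l and Klhl17 lie among the outermost protein-coding genes of this tip.

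**Figure D2:**
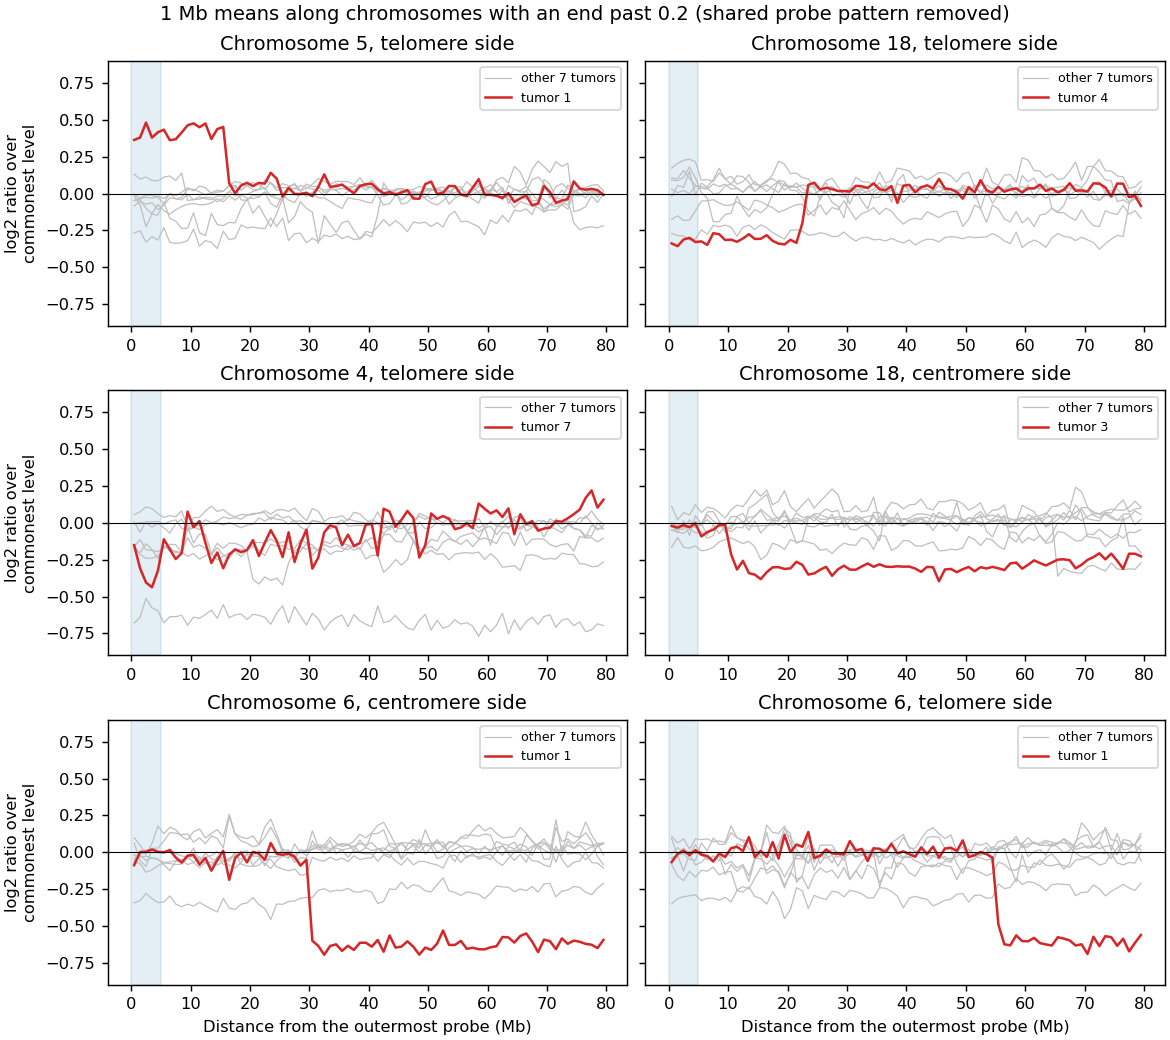
Means of 1 Mb bins of the log2 ratio (vertical, shared probe pattern removed, commonest level of each tumor at 0) against distance in Mb from the outermost probe, for the 6 end-by-tumor pairs past 0.2; the red line is the tumor named in each panel, grey lines are the other 7 tumors and the shaded band is the 5 Mb end. The gain of chromosome 5 in tumor 1 ends 16.1 Mb and the loss of chromosome 18 in tumor 4 ends 22.6 Mb from the last probe, while both ends of chromosome 6 in tumor 1 stay near 0 beside a level of -0.62.

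Just under the threshold with the pattern removed lay the centromere side of chromosome 19 in tumor 7 at -0.19, the telomere side of chromosome 11 in tumor 7 at -0.18 and the centromere side of chromosome 9 in tumor 8 at 0.18. They were followed by the telomere side of chromosome 2 in tumor 7 at -0.17, the telomere side of chromosome 11 in tumor 4 at 0.16 and the centromere side of chromosome 14 in tumor 3 at 0.15. Of these 6 pairs, 4 were in tumors 7 and 8. The smallest deviation counted as past the threshold was the 0.25 of chromosome 18 in tumor 3.

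The share of ends past the threshold was compared with the share of interior windows past it in each tumor. With the pattern removed, tumor 1 had 7.89% of its ends and 6.32% of its interior windows past 0.2, the highest share of interior windows among the tumors. Tumors 2, 6 and 8 had 0 of both. The difference of ends minus interior was 0.73 ± 1.0 percentage points (SD, n = 8), above 0 in 4 tumors and below 0 in 1 (two-sided exact sign-flip p = 0.125, Benjamini-Hochberg adjusted p = 0.25 over 12 tests). For the telomere side alone it was 1.4 ± 2.1 points (SD, n = 8), positive in 3 of the 8 (exact p = 0.25, adjusted 0.375), and for the centromere side 0.074 ± 2.1 points (SD, n = 8), positive in 1 of the 8 (exact p = 1, adjusted 1). With 5 tumors that differ from 0, the smallest exact p these tests can give is 0.0625, so none could pass and they do not settle whether ends exceed the interior. With the pattern kept, where all 8 tumors differ from 0, the difference was 0.44 ± 1.4 points (SD, n = 8; exact p = 0.5). At a threshold of 0.3 the difference was -0.43 points.

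**Figure D3:**
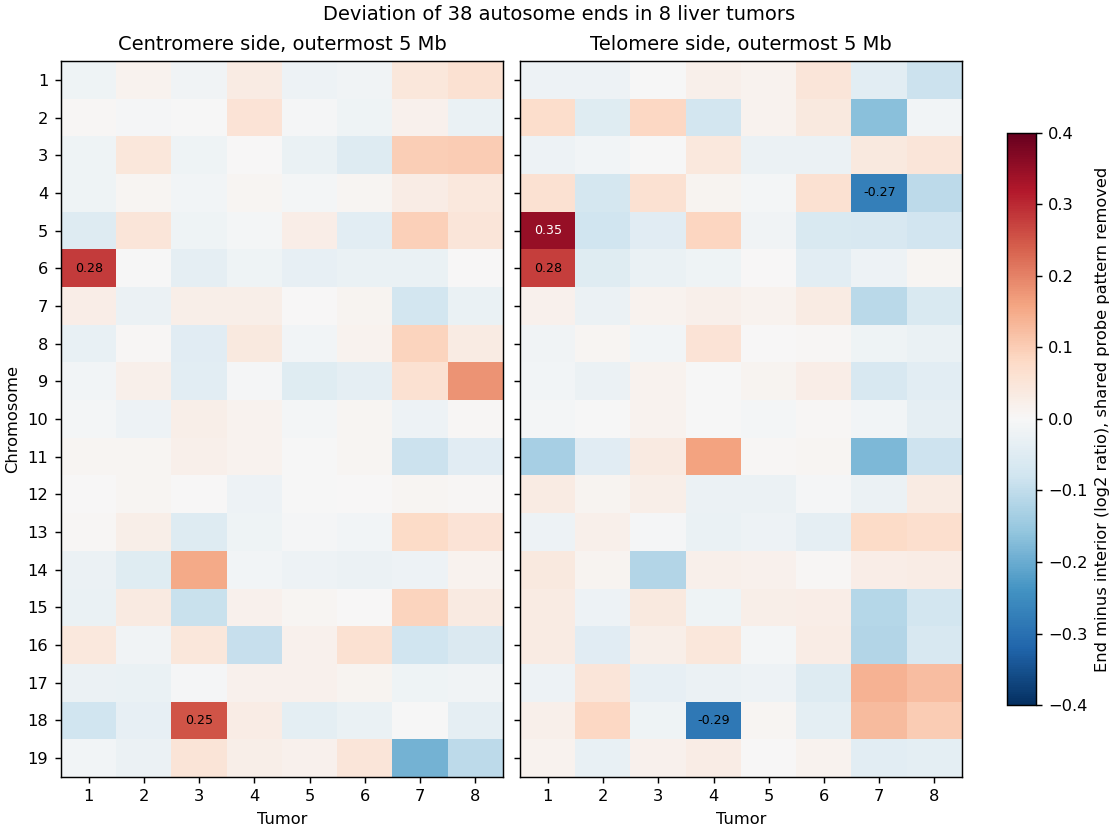
Deviation of each of the 38 ends (log2 ratio of the end minus the interior of its chromosome, shared probe pattern removed, on the colour scale) in each of 8 tumors, with centromere-side and telomere-side ends in separate panels. Single strong cells stand out for the 6 pairs past 0.2, for example 0.35 at the telomere side of chromosome 5 in tumor 1 and -0.29 at that of chromosome 18 in tumor 4.

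Averaged over the 19 autosomes, the centromere side was slightly higher than the interior with the pattern kept only, and the telomere side was not separable from it. With the pattern kept the mean deviation of the centromere side was 0.018 ± 0.0065 (SD, n = 8), from 0.0080 in tumor 5 to 0.028 in tumor 3, and 0.021 and 0.014 within the 2 slides. It was above 0 in 8 of 8 tumors (two-sided exact sign-flip p = 0.00781, the smallest that 8 tumors can give, adjusted p = 0.0313). With the pattern removed it was 0.0037 ± 0.0074 (SD, n = 8), with 6 tumors above 0, and did not pass (exact p = 0.211). All 8 ratios share the pool and the probes, so a low p here shows that the value repeats and does not tell the tumors from either. A few chromosomes carried much of this mean: it was 0.011 without chromosome 18 (exact p = 0.00781) and 0.011 without chromosomes 12 and 15 (exact p = 0.0156). The size of 0.018 is small beside the spread among the 19 centromere-side ends of a tumor, which had an SD of 0.045 to 0.10.

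On the telomere side the mean was 0.0012 ± 0.024 (SD, n = 8), with 5 tumors above 0 and 3 below (exact p = 0.844, adjusted 0.920). Tumor 1 was highest at 0.043 and tumor 7 lowest at -0.041, and the slide means were 0.012 and -0.010. Without tumor 1, whose chromosome 5 and 6 ends are described above, the mean was -0.0048. The centromere side minus the telomere side was 0.016 ± 0.024 (SD, n = 8), with 7 tumors above 0 (exact p = 0.0938, adjusted 0.225). This difference passed unadjusted only under some settings: without tumor 1 it was 0.022 (exact p = 0.0156), with ends of 10 Mb 0.036 (exact p = 0.0156) and with only probes well above background on all arrays 0.019 (exact p = 0.0469). With ends of 2 Mb it was -0.0025.

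**Figure D4:**
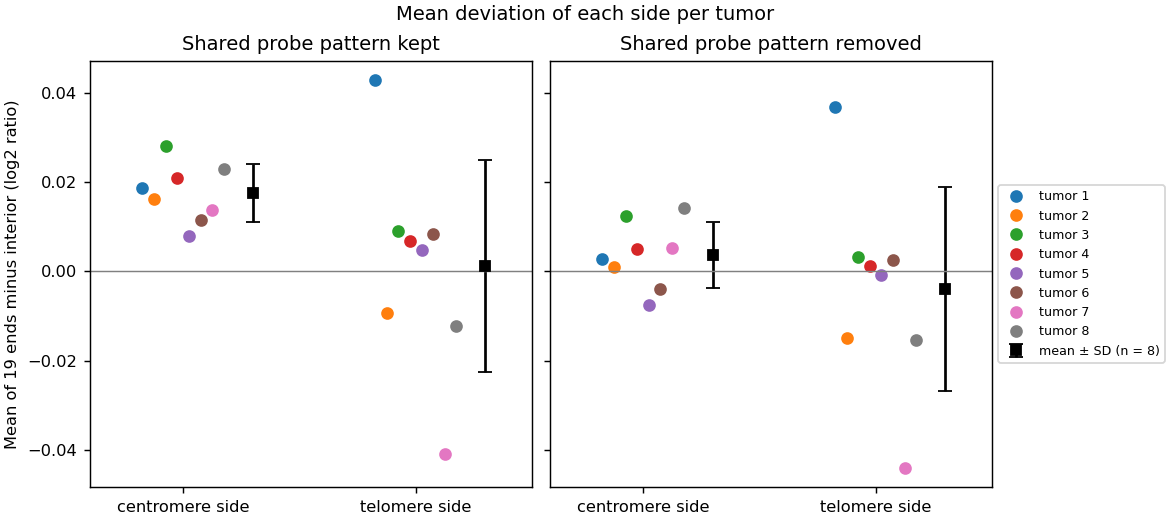
Mean over 19 autosomes of the deviation (log2 ratio of the end minus the interior) on the centromere side and on the telomere side, 1 point per tumor, with the shared probe pattern kept (left) and removed (right); black squares and bars are the mean and SD of 8 tumors. The centromere-side points all lie above 0 on the left (0.0080 to 0.028), and the telomere-side points spread from -0.041 to 0.043.

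The telomere side varied with distance from the tip. In the outermost 1 Mb the mean over chromosomes was 0.036 ± 0.012 (SD, n = 8), between 0.021 and 0.055, and above 0 in all 8 tumors with the pattern kept. From 6 to 7 Mb inward it was -0.044 ± 0.031 (SD, n = 8, 18 chromosomes with probes to fill the bin). With ends of 2 Mb the telomere side was at 0.028 ± 0.0066 (SD, n = 8), with an exact p of 0.00781. With the pattern removed the outermost 1 Mb was at 0.0039 ± 0.019 (SD, n = 8). On the centromere side the 1 Mb means lay between -0.016 and 0.050 with no steady course over the first 10 Mb.

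The ends also differed from the interior in the reference channel, which holds the same pool on every array. The log2 reference signal was lower on the centromere side by a mean difference of -0.033 ± 0.0019 (SD, n = 8), in 8 of 8 arrays, and higher on the telomere side by 0.0086 ± 0.0024 (SD, n = 8), also in 8 of 8 (exact p = 0.00781 and adjusted p = 0.0313 for each). As a single pool was read on 8 arrays, n counts arrays and not animals here. The p-values of the reference signal measure only repeatability between hybridizations. The spread among probes with the pattern removed was smaller on the centromere side than in the interior. The difference in SD was -0.0098 ± 0.0068 (SD, n = 8; exact p = 0.0156, adjusted p = 0.0469). The same difference with the pattern kept was -0.00068 ± 0.0052 (SD, n = 8), below 0 in 6 of 8 (exact p = 0.703, adjusted p = 0.844). An interior is longer than an end and can hold steps in level that widen its spread. An example is the segment at -0.62 on chromosome 6 in tumor 1, where the difference with the pattern removed was lowest, at -0.020. The spread in windows of equal length was not tested, so the low p is not read as a property of the centromere side. The part of the reference signal in the side means was not tested. The 2 slides of 4 arrays were compared for both side means and their difference on both scales, and the exact p was 0.143 or higher each time, where 0.0286 is the smallest that 70 splits allow.

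Single ends were tested over the 8 tumors with limma fitted to all 481 windows. With the pattern kept, 12 of the 38 ends passed an adjusted p of 0.05, against 39.5% of all windows and 40.2% of interior ones, so the share of ends called lay below the share of windows. Of the 12, 8 were on the centromere side, or 42.1% of its 19 ends, and 4 on the telomere side, or 21.1% of its 19. The share on the centromere side was thus close to that of interior windows. The centromere-side ends of chromosomes 12, 13, 15 and 18 were higher than their interiors and those of 4, 7, 10 and 17 lower. On the telomere side, chromosomes 8 and 19 were higher and 9 and 10 lower. The 6 higher and 6 lower ends stand beside 22.7% of all windows called higher and 16.8% called lower. With the pattern removed limma called 0 ends, 0 of them also at an unadjusted p under 0.05, against 0.00% of all windows, as subtraction of a median over these arrays takes out shared shifts by construction. Against a log2 size of 0.1 (treat) it called 0 ends and 0 of the 443 interior windows with the pattern kept.

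The centromere side of chromosome 18 had the highest mean of that side. Its deviation with the pattern kept was lowest in tumor 8 at 0.049, had a median of 0.11, and was highest in tumor 3 at 0.40, where the rest of the chromosome was lost. The mean was 0.14 ± 0.11 (SD, n = 8; limma adjusted p = 0.0128), above 0 in 8 of 8 tumors, and 0.10 without tumor 3. The centromere side of chromosome 15 came next. It ran from 0.0060 in tumor 3 through a median of 0.098 to 0.14 in tumor 7, with a mean of 0.092 ± 0.041 (SD, n = 8; limma adjusted p = 0.00102). All 8 tumors were above 0, including those that gained the whole chromosome. Its proximal tip carries Selenop, which encodes the selenium carrier secreted by liver, and Ghr, the growth hormone receptor gene. The centromere side of chromosome 12 was also higher in all 8 tumors, at 0.050 ± 0.012 (SD, n = 8; limma adjusted p = 0.000589), and its outermost genes include Asxl2, a chromatin regulator, and Dnmt3a, a DNA methyltransferase gene. The centromere side of chromosome 6 was at 0.0062 to 0.34 with a median of 0.035 and did not pass (limma adjusted p = 0.128), and without tumor 1 its mean was 0.033 with a limma adjusted p of 0.0136.

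At the low end of the centromere side, chromosome 17 was below 0 in 8 of 8 tumors, from -0.068 to -0.026 with a median of -0.040 and a mean of -0.043 ± 0.017 (SD, n = 8; limma adjusted p = 0.00253). With ends of 2 Mb it was -0.021 and missed the threshold (limma adjusted p = 0.322), and with 10 Mb it was 0.0020, the opposite sign. Chromosome 19 had the lowest mean, -0.055 ± 0.076 (SD, n = 8; limma adjusted p = 0.101), with tumor 7 at -0.21 and tumor 3 at 0.015. It passed under normexp (limma adjusted p = 0.0343), with medians (0.0294), with probes well above background (0.0207) and with ends of 2 Mb (0.0152) or 10 Mb (0.0104). Its tip carries Ighmbp2, a helicase gene, and Cpt1a, the gate of fatty acids into mitochondria. Chromosome 4 was at -0.034 ± 0.029 (SD, n = 8; limma adjusted p = 0.0306), below 0 in 6 tumors and above it in tumors 7 and 8. It missed the threshold without any 1 of tumors 1 to 6, and also under normexp (limma adjusted p = 0.262), with medians (0.244), with probes well above background (0.133), against all probes outside the end (0.0549) and with 10 Mb (0.935). With ends of 2 Mb it was 0.048 with a limma adjusted p of 0.00147, so the sign of this end depends on its width.

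On the telomere side the most even end was that of chromosome 10. It was below 0 in 8 of 8 tumors, from -0.063 to -0.036 with a median of -0.048, and its mean was -0.049 ± 0.0096 (SD, n = 8; limma adjusted p = 0.00049). With ends of 2 Mb it was -0.034 and missed the threshold (limma adjusted p = 0.106). The telomere sides of chromosomes 5, 6, 17, 18, 4 and 13 were not called with ends of 5 Mb and all 8 tumors, and all but that of chromosome 18 were called under some alternative. Chromosome 5 had a mean of 0.082 ± 0.15 (SD, n = 8; limma adjusted p = 0.201), which was 0.032 without tumor 1 and, with ends of 2 Mb, 0.14 with a limma adjusted p of 0.0184. Chromosome 6 had 0.064 ± 0.11 (SD, n = 8; limma adjusted p = 0.167), 0.026 without tumor 1, where it passed with a limma adjusted p of 0.0453. Chromosome 18 had -0.027 ± 0.13 (SD, n = 8; limma adjusted p = 0.626), which turned to 0.015 without tumor 4.

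On the telomere side of chromosomes 17, 13 and 4, tumors 7 and 8 lay at one extreme and tumor 2 was the nearest to them. On chromosome 17 these tumors were at 0.16 and 0.15, and the other 6 were between -0.0066 and 0.091, tumor 2 being the highest of these, with the pattern kept (limma adjusted p = 0.0508 over all 8). On chromosome 13 they were at 0.050 and 0.037 and the other 6 between -0.088 and -0.032 (limma adjusted p = 0.102), with no overlap. The chromosome 17 end passed with medians over probes (limma adjusted p = 0.0258), with probes well above background (0.0433), with outlier spots kept (0.0499), against all probes outside the end (0.0467) and without tumor 6 (0.0424). The chromosome 13 end passed under normexp (limma adjusted p = 0.0271) and without tumor 7 (0.0285) or tumor 8 (0.0490). On chromosome 4 they were at -0.28 and -0.12, below the other 6, which lay between -0.090 and 0.041 (limma adjusted p = 0.268), and with ends of 2 Mb the mean was -0.078 and passed (limma adjusted p = 0.0242). Such a separation was not particular to these ends. With the pattern kept, tumors 7 and 8 were at 0.11 and 0.085 on the telomere side of chromosome 18, above tumor 2, the next highest at 0.053. On that of chromosome 19 they were at -0.012 and -0.0078, below tumor 2, the next lowest at 0.027. On that of chromosome 12, tumor 7 at -0.036 lay among the other 6. The centromere side held such ends too. On chromosome 4 tumors 7 and 8 were at 0.0054 and 0.016, above tumor 2, the next highest at -0.037. On chromosome 19 they were at -0.21 and -0.12, below tumor 2, the next lowest at -0.058. On chromosome 17 they lay among the other 6, at -0.041 and -0.038. The number of separated ends was not counted, so the separation is not read as a trait of the ends of chromosomes 17, 13 and 4.

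Across the 38 ends, the deviations of tumors 7 and 8 were close to each other, with a Pearson r of 0.86 with the pattern kept and 0.83 with it removed. Those of tumor 2 came near to both, with r of 0.76 and 0.73 with the pattern kept and 0.79 and 0.74 with it removed. Among tumors 1 to 6 the r of a pair was 0.23 to 0.81 with the pattern kept and -0.48 to 0.54 with it removed. These correlations run over ends of the same arrays, share the pool, and are descriptions only. The deviations also moved with the number of probes in an end, with r of -0.68 in tumor 7, -0.70 in tumor 8 and -0.58 in tumor 2 with the pattern removed, against 0.38 and 0.42 in tumors 5 and 6. In tumors 7 and 8 the centromere side of chromosome 19, with 453 probes, was at -0.19 and -0.10, and the telomere side of chromosome 17, with 238, at 0.14 and 0.12. Not every end followed, as the telomere side of chromosome 14, with 455 probes, was at 0.025 and 0.030. The part of probe number in the low chromosome 4 end of tumor 7, which held 404 probes, was not tested.

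**Figure D5:**
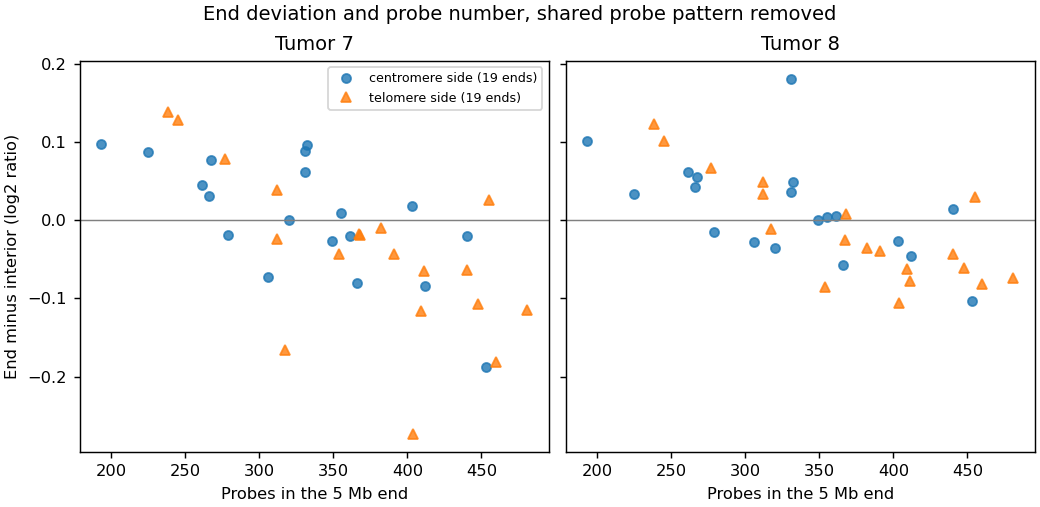
Deviation of each end (log2 ratio of the end minus the interior, shared probe pattern removed) against the number of probes in the 5 Mb end, for tumor 7 and tumor 8, with 19 centromere-side ends as circles and 19 telomere-side ends as triangles. Ends with more probes tend to lie lower in both tumors (r = -0.68 and -0.70 over 38 ends), and the lowest point is the telomere side of chromosome 4 in tumor 7 at -0.27.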

How the data were processed

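Arrays were scanned and extracted with Agilent Feature Extraction 10.7.3.1, per the submitters' processing notes. The deposited processed signals are intensity values, background-subtracted and dye-normalized within each array per the file headers. The deposited table of the series holds log10 ratios of red over green, and it served as an alternative. The deposited spot marks (outlier, well above background) are flags of 0 or 1, a unit of the kind other. Probe positions are on mm9 per the file headers.

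Processed red signals were divided by green ones and taken to log2 for the 174305 spots other than controls, without loess or quantile normalization. Outlier spots (115 to 221 per array) were left out, and spots of a probe were averaged over 170305 probes. The deviation of a window is its mean minus that of the other interior probes of its chromosome. The shared pattern is the median over arrays of each probe after subtraction of chromosome medians, scaled to each array by 0.571 to 1.08. Commonest levels are density peaks of 1 Mb means. Segments came from recursive binary splitting at a z of 8 with at least 20 probes, an analysis chosen after seeing the data.

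Side means were tested by two-sided exact sign-flip permutation with Benjamini-Hochberg adjustment over 12 tests. Windows were tested by limma 3.58.1 (R 4.3.3, intercept only, eBayes) over all 481. In simulated arrays whose shared pattern had been averaged out of every window, limma recovered 8 of 8 planted shifts with 0 other calls. Such arrays cannot show how many windows are called because of the pattern itself. The planted shifts were larger than the mean of any called end, the largest being 0.14, so their recovery does not describe smaller shifts. Other work used Python 3.11.15 with numpy 2.4.6 and scipy 1.17.1. Named ends are the 3 highest and 3 lowest means per side and every end past 0.2 in a tumor. The other called ends, the ends that differed from their interior in being past the threshold and the examples of whole-chromosome changes were named after their values were seen. Alternatives were the pattern, normexp (offset 50, on median spot signals, as the mean signals planned for it were not used here), the series table, medians, spot filters, widths of 2 and 10 Mb, thresholds of 0.1 and 0.3, and leaving out tumors. The ends, lists and tests were chosen with earlier results of these data known.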

Additional observations from a re-analysis of the deposited data

Results flagged for a closer look

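The 16 ends or side values checked as groups of 8 tumors included 5 in which 1 tumor lay far from the other 7 by Dixon's criterion, which chance meets in about 1 of 20 groups. Tumor 1 was the distant one at 3 of them, with a deviation of 0.34 on the centromere side of chromosome 6, 0.33 on its telomere side and 0.43 on the telomere side of chromosome 5, all with the pattern kept. Tumor 3 was distant on the centromere side of chromosome 18 with 0.40. Tumor 4 was distant on the telomere side of chromosome 18 with -0.32. All 5 are among the 6 ends that had a tumor past 0.2 with the pattern removed, which was a ground for entering the check. The rate of 1 in 20 therefore does not apply to them.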

How the results depend on the processing

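The mean of the centromere side passed (unadjusted exact p) under each tested alternative except removal of the pattern (0.0037) or of a pattern from the other 7 arrays (0.0039). Within a slide, 4 arrays are too few for the test to pass. The mean of the telomere side changed sign with the pattern removed (-0.0039), with the pattern of the other 7 arrays (-0.0034), with probes well above background only (-0.0041) and with ends of 10 Mb (-0.014), and ran from -0.0048 to 0.0072 with 1 tumor left out. It passed with ends of 2 Mb (0.028). The side difference passed with probes well above background (0.019) and ends of 10 Mb (0.036), turned to -0.0025 with 2 Mb, and ran from 0.011 to 0.022 with 1 tumor left out. It was 0.0080 without chromosome 18 and 0.0069 without chromosomes 12 and 15 or without tumors 7 and 8. The limma count fell to 0 with either pattern removed and with treat, where 0 interior windows were called too. It was 8 to 12 ends with 1 tumor left out, beside 29.3% to 38.8% of interior windows. Pairs past the threshold numbered 24 at 0.1 and 1 at 0.3, and 3 to 6 with 1 tumor left out. The share of ends minus that of interior windows was 1.6 points at 0.1 (exact sign-flip p = 0.258) and -0.43 points at 0.3. With 1 tumor left out it was 0.49 to 0.90 points at 0.2. The chromosome 17 centromere side was 0.0020 with 10 Mb, and that of chromosome 4 was 0.0075 and 0.0062 with either pattern removed and 0.048 with 2 Mb. Calls that single ends gained or lost stand beside their values above. The cause of these changes was not tested. No paired analysis was possible because the tumors form 1 group.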

Other observations

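Several genes known from liver growth, imprinting or DNA repair lie near chromosome tips by RefSeq order on GRCm38, counted in protein-coding genes between them and the tip. Near the distal tip of chromosome 7 lie Ccnd1, the cyclin D1 gene, with 4 genes outside it, Fgf15, a gut hormone gene of bile acid control, with 6, and the imprinted genes Cdkn1c and Igf2 with 27 and 36. Arid1b, a subunit gene of a chromatin remodeller, has 7 genes outside it at the proximal tip of chromosome 17. None of these genes was placed among the probes.

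Chromosome 18 was split close to the same place in tumors 3 and 4, the only tumors in which it was segmented. In tumor 3 the proximal segment ended at 13517594, and in tumor 4 at 13493910. The step there was from -0.029 to -0.31 in tumor 3 and from -0.019 to 0.035 in tumor 4, with the pattern removed. With the pattern kept, tumor 4 went from 0.21 to 0.16 over the array median, a step in the opposite direction, and tumor 3 from 0.27 to -0.11. On that scale the centromere side of chromosome 18 was above its interior in all 8 tumors, by 0.049 to 0.40. The part of the shared pattern in these splits was not tested.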
